A study of Tachysurus vachellii with 6 samples.

Results

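The genes of the vascular endothelial growth factor (VEGF) ligands and their receptors were followed in gill messenger RNA of a hybrid yellow catfish, a cross of female Tachysurus fulvidraco with male Pseudobagrus vachellii. The set was chosen by name, as 8 rows of a table of 28288 genes. It holds 4 ligand genes, namely vegfa, the VEGF A-A-like gene LOC113637314, vegfc and vegfd, and 4 rows described as receptors, namely flt1, LOC113661328, LOC113647811 and LOC113635850. The hypoxia fish spent 96 h at 1.5 mg/L dissolved oxygen and the controls, called normoxia here, were held at 6.5 mg/L. The groups follow the treatment label and the title of each sample, while the treatment protocol field, the same for all 6 samples, names hypoxia alone. All fish had been acclimated in tanks at 28 °C and fasted for 24 h before the trial. Each group had 9 fish whose RNA was mixed in sets of 3, which gave 3 libraries per group. Every error and p-value here refers to such pools and not to single fish. Those of edgeR also include counting error and draw on the spread of other genes. Where 3 values are given for a group, they are those of replicates 1, 2 and 3 in that order. The labels give no age or sex, and the counts do not separate the alleles of the parent species.

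VEGF ligands are secreted dimers that bind receptor tyrosine kinases on endothelial cells. In mammals and zebrafish VEGF-A acts mainly through VEGF receptor 2 and drives the growth of blood vessels, while VEGF receptor 1 (flt1) binds VEGF-A tightly, signals weakly and works largely as a decoy. In mammals VEGF-C and VEGF-D are made as longer precursors and act mainly through VEGF receptor 3 (flt4), the receptor of lymphatic vessels. Mammalian VEGFA is a classical target of the hypoxia-inducible factors. The gill, the organ of oxygen uptake, is densely supplied with vessels, so the comparison asks which of these transcripts differ between low and ordinary oxygen.

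In hypoxia the transcript of vegfd, the gene of VEGF-D, fell 3.07-fold, and it was the only one of the 8 genes that passed the test. The level of vegfa was 1.01 ± 0.643 FPKM (mean ± SD, n = 3 libraries) in normoxia and 2.21 ± 0.764 FPKM in hypoxia, a difference that did not pass. The more abundant VEGF A-A-like gene stood at 5.50 ± 0.928 FPKM in normoxia and 5.10 ± 1.22 FPKM in hypoxia, and none of the 4 receptor rows passed. FPKM, the deposited unit, is a level per transcript length and library size. A gene is called here when the quasi-likelihood test of edgeR on the counts gives a Benjamini-Hochberg adjusted p under 0.05 over all 15312 genes tested. All 8 genes passed the filter for testing, which asked for 1 FPKM or more in 3 or more of the 6 libraries. The 1 call among 8 genes is 12.5%, beside 9.54% of all genes tested, and by direction 4.15% of all genes were called lower and 5.39% higher.

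All 8 genes were weakly expressed, with mean levels of 1.61 to 5.30 FPKM over the 6 libraries, which put each of them under the median of the genes tested. Their counts ran from 41, for vegfa in normoxia replicate 1, to 1344, for flt1 in hypoxia replicate 3. In normoxia the order of the mean levels was vegfd, LOC113637314, LOC113647811, flt1, LOC113661328, vegfc, LOC113635850 and vegfa. Neighbours in this order overlapped over the libraries, except that the lowest value of LOC113647811, 3.23 FPKM, lay just above the highest of flt1, 3.18 FPKM. In hypoxia the order was LOC113647811, LOC113637314, vegfc, flt1, vegfa, LOC113635850, vegfd and LOC113661328, and only the neighbours LOC113637314 and vegfc did not overlap. The place of vegfd thus went from first in normoxia to seventh in hypoxia.

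**Figure D1:**
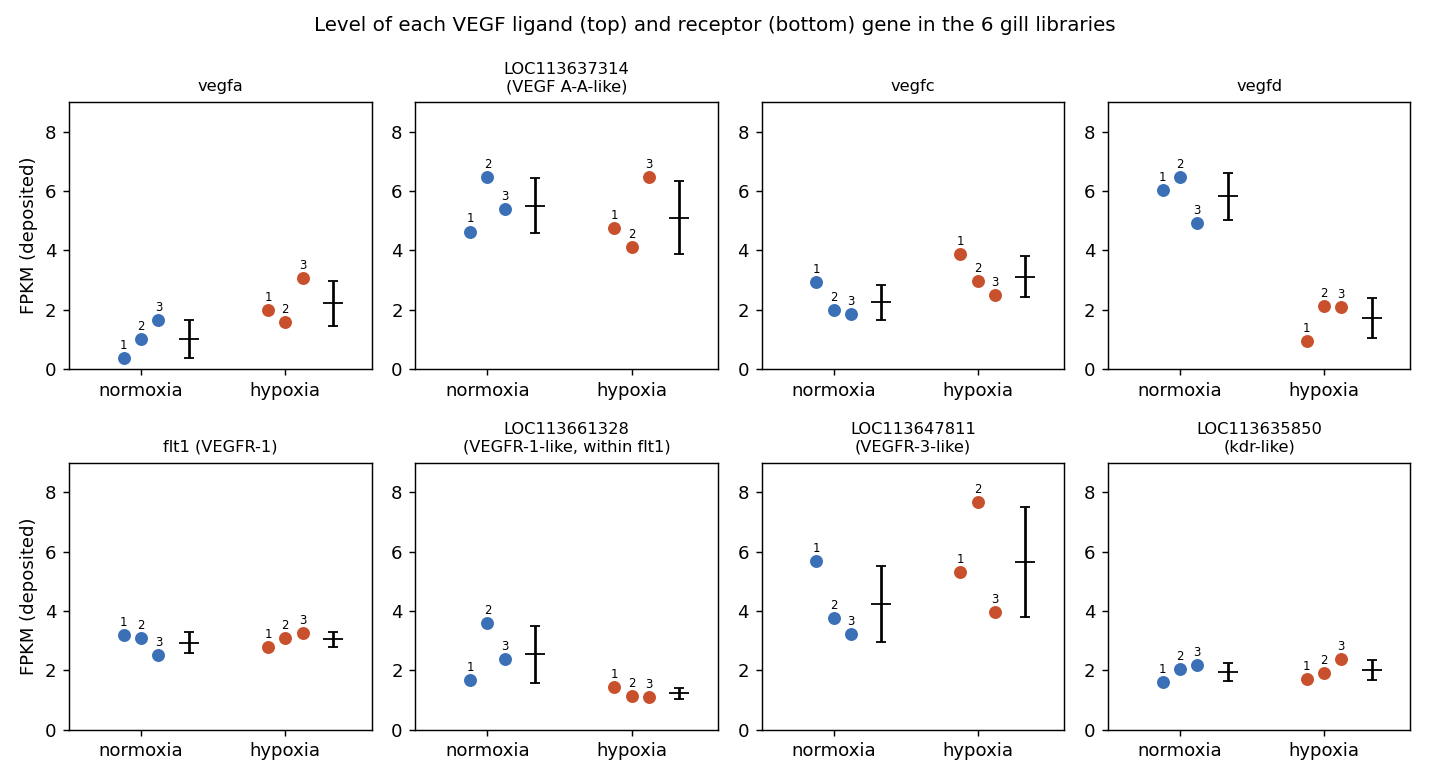
Deposited FPKM of each ligand gene (top row) and receptor row (bottom row), with 1 point per library, the replicate number above it, and the mean ± SD of the 3 libraries at the right of each group. The 3 hypoxia libraries of vegfd lie between 0.952 and 2.12 FPKM, all under the lowest normoxia library at 4.93 FPKM.

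Among the ligands, vegfd lies on scaffold NW_020848000.1 from 1095973 to 1115277 on the minus strand and has 3 transcripts in the table. Its levels were 6.03, 6.48 and 4.93 FPKM in normoxia. In hypoxia they were 0.952, 2.12 and 2.07 FPKM. The groups did not overlap, and hypoxia replicate 1 was the lowest library. The fitted log2 change was -1.62 ± 0.31 (SE), with a 95% interval of -2.34 to -0.89 and an edgeR adjusted p of 0.0305. The direction was the same in each of 15 alternatives, with log2 changes of -1.83 to -1.35, but the call rested on all 6 libraries. Without any single library the edgeR adjusted p was 0.0514 (without hypoxia replicate 1) to 0.0999 (without normoxia replicate 2).

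The gene vegfc encodes VEGF-C, the other ligand of VEGF receptor 3 in mammals. Its levels were 2.92, 1.99 and 1.84 FPKM in normoxia, and 3.87, 2.96 and 2.50 FPKM in hypoxia. The groups overlapped, since normoxia replicate 1 was higher than hypoxia replicate 3. The log2 difference was 0.64 ± 0.32 with a 95% interval of -0.11 to 1.40 (edgeR adjusted p = 0.224). As a description, the level of vegfd was 2.06 to 3.26 times that of vegfc in the normoxia libraries and 0.246 to 0.828 times that of vegfc in the hypoxia libraries. Of the 2 levels summed, vegfd made up 67.4% to 76.5% in normoxia and 19.8% to 45.3% in hypoxia. No test was made of the difference between these 2 genes.

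The gene vegfa, with 2 transcripts on scaffold NW_020847801.1 from 389563 to 410309, had the lowest mean level of the 8 over the 6 libraries, and in hypoxia it stood above 3 of them. Its levels were 0.367, 1.02 and 1.65 FPKM in normoxia, from 41, 98 and 166 counts. In hypoxia they were 1.98, 1.59 and 3.07 FPKM, from 179, 171 and 340 counts. On deposited FPKM normoxia replicate 3 exceeded hypoxia replicate 2, so the groups overlapped. With TMM scaling, which corrects each library for its composition and is given in CPM, scaled counts relative to library size, the 3 hypoxia libraries lay above all normoxia libraries, at 3.45 to 6.01 against 0.725 to 3.13 CPM. The log2 difference was 1.28 ± 0.55, with a 95% interval of -0.01 to 2.58 (edgeR adjusted p = 0.169). It was above 0 in each of the 15 alternatives, from 0.70 to 1.82, and passed in none of them, with adjusted p of 0.0889 to 0.326. The spread between pools was wide for this gene, since the normoxia libraries alone differed more than 4-fold by FPKM.

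The second A-type gene, LOC113637314, is described as VEGF A-A-like and lies on scaffold NW_020848237.1 from 914099 to 923281. Its levels were 4.63, 6.48 and 5.40 FPKM in normoxia, and 4.73, 4.10 and 6.46 FPKM in hypoxia. Each group had 1 library near 6.5 FPKM, and the ranges nearly coincided. The log2 difference was 0.04 ± 0.24, with a 95% interval of -0.51 to 0.60 (edgeR adjusted p = 0.926), and it had the other sign in 6 of 15 alternatives. Relative to the levels of these 2 genes summed, vegfa made up 7.34%, 13.6% and 23.4% in normoxia and 29.5%, 28.0% and 32.2% in hypoxia. Over all 5 rows described as VEGF A or A-like, a sum chosen after seeing the data, it made up 3.16%, 9.05% and 14.3% in normoxia and 19.8%, 13.3% and 21.5% in hypoxia. The groups did not overlap in the first share and overlapped in the second, and both are descriptions without a test.

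**Figure D2:**
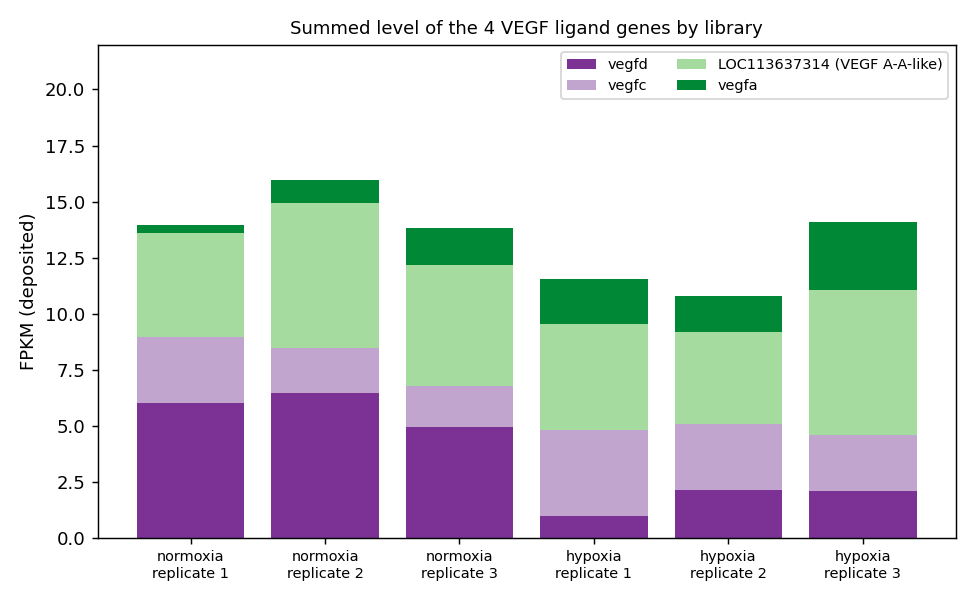
Stacked deposited FPKM of the 4 ligand genes in each library, with 1 bar per library. The summed level was 13.8 to 16.0 FPKM in normoxia and 10.8 to 14.1 FPKM in hypoxia, and the lowest segment, vegfd, took 35.7% to 43.2% of it in normoxia and 8.26% to 19.7% in hypoxia.

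Among the receptors, flt1, which encodes VEGF receptor 1, varied least of the 8 genes, with 1.29-fold between its lowest and its highest library. Its levels were 3.18, 3.10 and 2.52 FPKM in normoxia, and 2.78, 3.09 and 3.26 FPKM in hypoxia. The FPKM of the groups overlapped, while with TMM scaling the hypoxia libraries, at 23.8 to 24.98 CPM, lay just above the normoxia libraries, at 17.8 to 23.4 CPM. The log2 difference was 0.21 ± 0.15, with a 95% interval of -0.14 to 0.56 (edgeR adjusted p = 0.386). It was 0.50 with a correction for transcript length (edgeR adjusted p = 0.118), and flt1 is among the long transcripts here, with a length of 7564 bases estimated from its counts and FPKM.

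The row LOC113661328 carries the description of VEGF receptor 1, but the table gives it a single non-coding transcript and places it, on the plus strand, wholly inside flt1 on the minus strand. It spans 1550 bases of scaffold NW_020847769.1, from 11173441 to 11174990, and flt1 runs from 11167410 to 11193259. The sources used here do not say whether the counting used strand, so reads of flt1 and of this row cannot be told apart with certainty, and it is not called a receptor gene here. Its levels were 1.66, 3.58 and 2.37 FPKM in normoxia, against 1.42, 1.15 and 1.09 FPKM in hypoxia. All hypoxia libraries lay below all normoxia libraries by FPKM, but with TMM scaling normoxia replicate 1 lay just under hypoxia replicate 1, at 2.07 and 2.08 CPM. The log2 difference was -0.87 ± 0.41, with a 95% interval of -1.85 to 0.10 (edgeR adjusted p = 0.204). Per length its level was 52.2% to 116% of that of flt1 in the normoxia libraries and 33.4% to 51.2% in the hypoxia libraries.

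LOC113647811, described as VEGF receptor 3, had the highest mean level of the receptor rows. It lies on scaffold NW_020847827.1 from 1034969 to 1042402 on the plus strand, and the gene with the symbol flt4, which has the same description, lies 7815 bases beyond its end on the minus strand. Between them lies LOC113647812, described as the trafficking protein ERGIC1, which is on the minus strand and overlaps the end of LOC113647811 by 1084 bases. It was at 6.05 FPKM in normoxia and 6.18 FPKM in hypoxia. As the use of strand in counting is unknown, the level of LOC113647811 may include reads of LOC113647812. The levels of LOC113647811 were 5.67, 3.77 and 3.23 FPKM in normoxia, and 5.31, 7.66 and 3.98 FPKM in hypoxia. The groups overlapped, with normoxia replicate 1 above 2 of the hypoxia libraries, and the log2 difference was 0.59 ± 0.34 (95% interval -0.22 to 1.40, edgeR adjusted p = 0.289). Its level was 1.59 to 6.59 times that of flt4, with the lowest ratio in normoxia replicate 2 and the highest in hypoxia replicate 2, so the 2 rows with 1 description did not keep a fixed ratio over the libraries.

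LOC113635850 is described as the receptor kdr-like, a form of VEGF receptor 2, the main signalling receptor of VEGF-A. Its levels were 1.62, 2.03 and 2.18 FPKM in normoxia, and 1.72, 1.896 and 2.39 FPKM in hypoxia. The groups overlapped almost fully. The log2 difference was 0.20 ± 0.17, with a 95% interval of -0.21 to 0.60 (edgeR adjusted p = 0.478). With the correction for transcript length it was 0.48 (edgeR adjusted p = 0.0892), at an estimated length of 7387 bases. The intervals of this gene, flt1 and LOC113637314 lay within 1 log2 unit, a 2-fold change, on both sides of 0, and those of vegfa, vegfc, LOC113661328 and LOC113647811 did not.

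**Figure D3:**
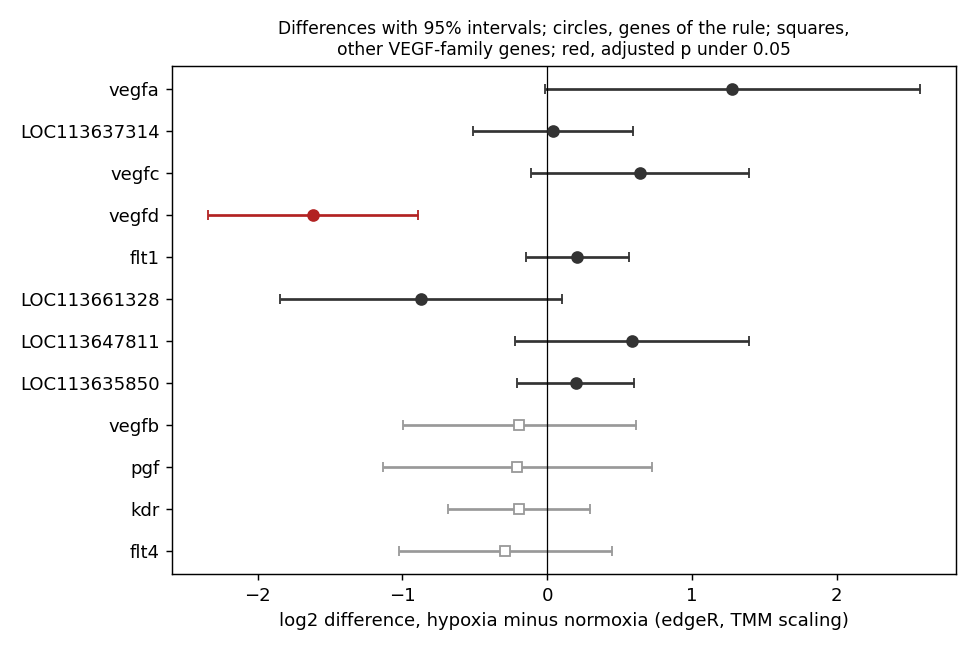
Log2 differences of hypoxia minus normoxia from edgeR with 95% intervals, for the 8 genes (filled circles) and the 4 other tested VEGF-family genes (open squares). The interval of vegfd, -2.34 to -0.89, is the only one that does not reach 0, and that of vegfa is the widest.

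Over the 8 genes the median log2 difference was 0.20, beside -0.04 over all genes tested. That median holds for these 8 alone, since the 4 other tested genes of the family had log2 differences of -0.29 to -0.19. By FPKM the groups did not overlap in 2 of the 8 genes, vegfd and LOC113661328, both lower, beside 37.3% of all genes tested with 25.9% lower and 11.4% higher. With TMM scaling they did not overlap in 3, vegfa and flt1 higher and vegfd lower, beside 37.2% of all genes, 18.7% higher and 18.5% lower. A pair of 3 against 3 libraries cannot give an exact two-sided permutation p under 0.1 for a single gene, and on log2(FPKM + 1) that smallest value was reached by vegfd and LOC113661328.

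**Figure D4:**
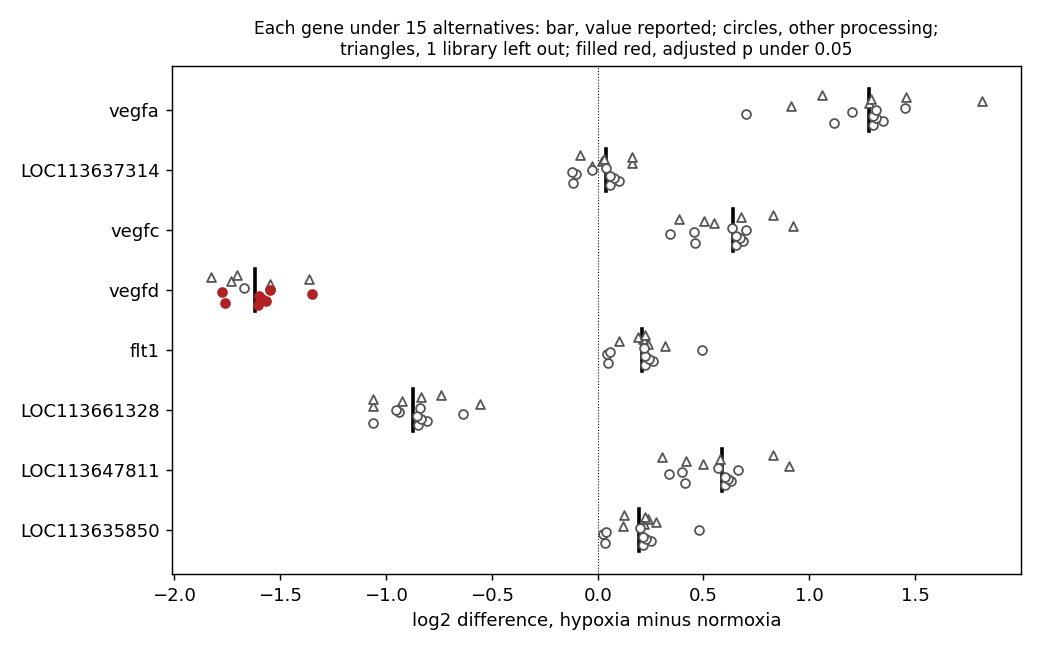
Log2 difference of each of the 8 genes as reported (black bar) and under 15 alternatives, 9 of processing (circles) and 6 without 1 library (triangles), filled red where the adjusted p was under 0.05. For vegfd 8 of the 9 processing alternatives passed and none of the 6 fits without 1 library did, and for LOC113637314 the values lay on both sides of 0, from -0.12 to 0.16.

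The table held 6 further rows described as VEGF or placenta growth factor ligands or VEGF receptors, which the rule does not name; vegfb and pgf were in a list made for this comparison, and the others were added after their values were seen. None of the 4 that could be tested passed by edgeR, and none had an exact permutation p under 0.3. The gene kdr, described as VEGF receptor 2, was at 3.73, 3.29 and 3.52 FPKM in normoxia and at 1.93, 2.73 and 3.73 FPKM in hypoxia, and its log2 difference was -0.19 ± 0.21 by edgeR (adjusted p = 0.572). For flt4 the log2 difference was -0.29 ± 0.31 (edgeR adjusted p = 0.573). The gene pgf, whose product binds receptor 1 in mammals, and vegfb, which the table describes as VEGF A-like, had log2 differences of -0.21 ± 0.39 and -0.19 ± 0.34, at 2.11 and 4.05 FPKM in normoxia. A pair of VEGF A-like rows, LOC113644543 and LOC113646948, were under the filter, and the second ranged from 0.143 FPKM in normoxia replicate 1 to 2.46 FPKM in hypoxia replicate 2.

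Neuropilins, co-receptors that hold VEGF ligands on the cell surface, had 4 rows. Of these 3 were tested and 1 was called, which is 33.3% beside 9.54% of all genes tested. The neuropilin-1a-like gene LOC113637321 fell, from 1.41, 1.17 and 1.23 FPKM in normoxia to 0.394, 0.570 and 0.385 FPKM in hypoxia (log2 change -1.33 ± 0.32, edgeR adjusted p = 0.0482). The genes nrp2 and the neuropilin-2-like gene LOC113654316 had log2 differences of -0.18 ± 0.18 and -0.29 ± 0.17 and did not pass. The call of LOC113637321 was kept in 2 of the 9 processing alternatives and in 0 of the 6 fits without 1 library. This gene passed the filter through its normoxia libraries alone. With no filter on low values its edgeR adjusted p was 0.085. The gene nrp1 was under the filter, at 0.777, 1.17 and 2.28 FPKM in normoxia and 0.572 to 0.607 FPKM in hypoxia.

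In mammals proprotein convertases cut the precursors of VEGF-C and VEGF-D, and VEGF-C is then activated by the protease ADAMTS3 together with CCBE1, while other proteases such as plasmin can activate VEGF-D. Of 9 rows of this processing step 4 were tested, 1 was higher and none lower, which is 25% called beside 9.54% of all genes tested. The furin-1-like gene LOC113653066, a convertase gene by description, rose from 6.90, 5.49 and 5.76 FPKM in normoxia to 7.72, 8.80 and 9.93 FPKM in hypoxia (log2 change 0.69 ± 0.14, edgeR adjusted p = 0.0344). That call was kept in 5 of 9 processing alternatives and in 1 of the 6 fits without 1 library, the one without normoxia replicate 1. The scaffold protein gene ccbe1 was at 4.11 to 5.00 FPKM in normoxia and at 16.7, 8.00 and 7.23 FPKM in hypoxia, with a log2 difference of 1.44 ± 0.39 that did not pass (edgeR adjusted p = 0.0626). A second furin row, LOC113660005, had a log2 difference of -0.40 ± 0.16 and the convertase gene pcsk7 one of -0.08 ± 0.10, and neither passed. By FPKM 2 of the 4 tested rows did not overlap higher and 2 lower, beside 11.4% and 25.9% of all genes tested. Under the filter, adamts14 was at 0.672 to 1.46 FPKM in normoxia and 0.229 to 0.291 FPKM in hypoxia. The CCBE1-like row LOC113652513, also under it, was at 0.492 to 1.01 and 0.165 to 0.445 FPKM. The CCBE1-associated protease gene adamts3 was at 0.0426 to 0.171 FPKM over all libraries and was not tested.

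The 25 tested genes that relay signals from VEGF receptors had a median log2 difference of -0.29, beside -0.04 over all genes tested. The phospholipase gene plcg1, a direct partner of VEGF receptor 2, differed by -0.29 ± 0.13 on the log2 scale (edgeR adjusted p = 0.175), and akt1 by -0.62 ± 0.17 (edgeR adjusted p = 0.0648); both were chosen after their values were seen.

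Of the 120 other genes that the table itself assigns to the VEGF signalling pathway, 96 were tested, 4 were higher and 10 lower, which is 14.6% beside 9.54% of all genes tested. The genes that rose were the p38 kinase 14A-like gene LOC113661912 (0.77 ± 0.12), the calcineurin B homologous gene chp1 (0.97 ± 0.18), the HRas-like gene LOC113641175 (0.56 ± 0.12) and the RhoU-like gene LOC113643673 (1.15 ± 0.27). Those that fell included the phosphoinositide 3-kinase subunits pik3cd (-0.77 ± 0.16) and pik3r5 (-0.59 ± 0.12), which are known chiefly from blood cells, the gamma subunit-like gene LOC113658082 (-0.71 ± 0.16), the protein kinase C beta gene LOC113659158 (-1.36 ± 0.29) and the haematopoietic adaptor gene hsh2d (-1.28 ± 0.21). These values are log2 changes ± SE. Without 1 library 0 to 6 genes of this assignment were called, beside 132 to 912 of all 15312 genes. With no filter on low values 6 were called, beside 862 of all 23313 genes. With the correction for transcript length 7 were called, beside 1131 of all 15312 genes. Of the genes just named, LOC113661912 and hsh2d were each called in 2 of the 6 fits without 1 library and chp1 in 1. The others were called in 0 of these fits, and LOC113643673 in only 3 of 9 processing alternatives. By DESeq2 26 of the 96 were called, beside 3332 of all 15312 genes. Of 20 tested genes whose ontology terms name VEGF, 2 were higher and 2 lower, which is 4 of 20 beside the same 9.54%. Without 1 library 1 or 2 of them were called. The 2 that rose were hif1an, whose product is the hydroxylase known as factor inhibiting HIF (2.01 ± 0.13), and the von Hippel-Lindau tumour suppressor gene LOC113640752, whose product marks HIF for degradation (1.39 ± 0.27). The 2 that fell were LOC113637321 and the tyrosine phosphatase gene LOC113644642 (-0.87 ± 0.21).

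In 4 further lists no gene passed by edgeR, while 1 or 2 genes in each had an unadjusted p under 0.05. Such a p was common, since vegfa, at an unadjusted edgeR p of 0.0520, ranked only 4706 among all 15312 genes tested. The genes tested were 8 of 9 regulators of VEGF transcription and messenger stability, 9 of 15 Notch and tip cell genes, 4 of 5 other ligands of the family, vegfb and pgf among them, and 4 of 7 receptors related to those of VEGF. The regulators with the smallest p were hnrnpl (0.38 ± 0.14), whose product binds VEGFA messenger RNA in mammals, and zfp36l2 (0.42 ± 0.17). Among the tip cell genes they were LOC113661314, described as apelin receptor B-like (-0.63 ± 0.19), and nrarp, whose product feeds back on Notch signalling (0.67 ± 0.28). The Notch ligand gene dll4, known to be induced by VEGF in sprouting vessels, stood at 0.00 ± 0.27 and was chosen after its value was seen. The platelet-derived growth factor genes pdgfd (1.08 ± 0.35) and LOC113657065 (0.51 ± 0.22) had the smallest p of the other ligands, and kit (-0.90 ± 0.26) and pdgfra (-0.55 ± 0.20) that of the other receptors. By DESeq2, which called 3332 of all 15312 genes, 1 gene was called in each of the lists of tip cell genes, other ligands and other receptors. Of the regulators it called 0.

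**Figure D5:**
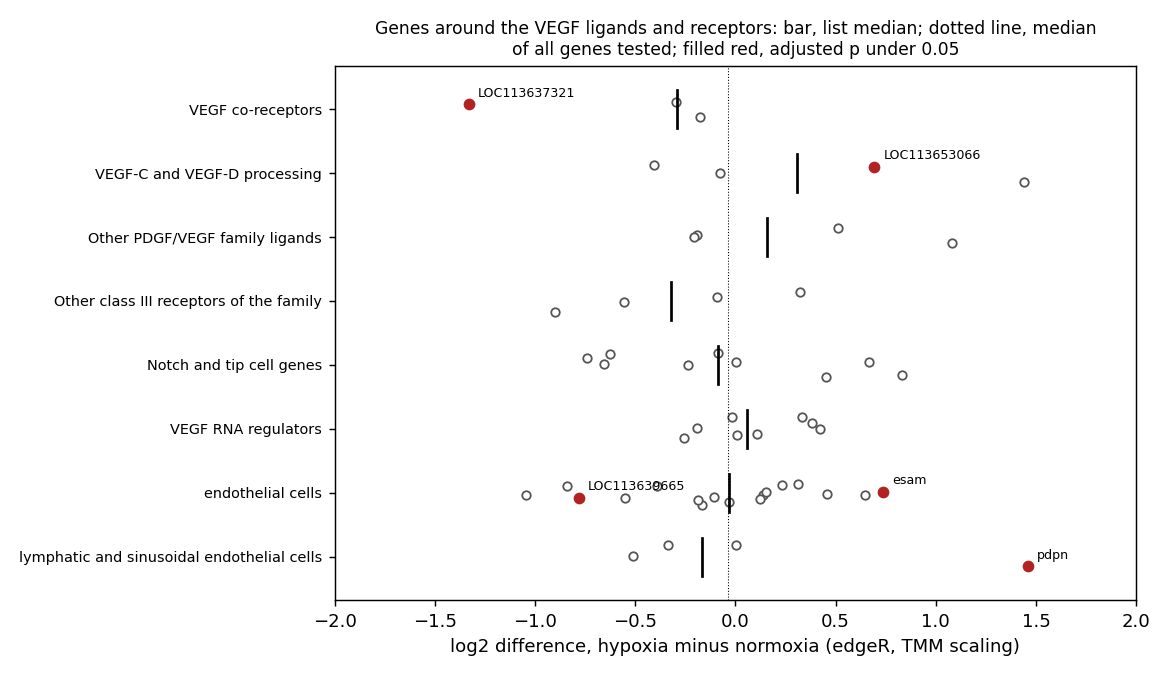
Log2 differences of the tested genes in 6 lists around the VEGF ligands and receptors and in 2 endothelial marker lists, with 1 point per gene and the list median as a bar. The filled points are genes with an adjusted p under 0.05, of which LOC113637321 lies lowest, at -1.33, and pdpn highest, at 1.46.

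The receptors are made chiefly by endothelial cells, and in bulk gill fewer cells of a type and less RNA per cell cannot be told apart. Of 17 tested endothelial markers 1 was higher, esam (0.74 ± 0.12), and 1 lower, the PECAM1-like gene LOC113639665 (-0.78 ± 0.18). These calls make 11.8%, beside 9.54% of all genes tested. LOC113639665 was at 2.01 to 4.78 FPKM over the libraries. A second and more abundant PECAM1-like row, LOC113656888, was at 21.25 to 36.52 FPKM. Its log2 difference was -0.03 ± 0.20 (edgeR adjusted p = 0.935). Of the 6 fits that leave out 1 library, 1 called esam and 0 called LOC113639665. The summed level of the 20 markers was 156 to 198 FPKM in normoxia and 129 to 200 FPKM in hypoxia, so the groups overlapped. The largest parts of this sum were vwf, at 50.7 to 95.1 FPKM over the libraries, and LOC113656888. The defining endothelial genes tek, tie1 and cadherin-5 (LOC113651453) were expressed in all libraries. The level of tie1 was 3.66, 3.58 and 3.29 FPKM in normoxia and 0.701, 2.55 and 2.10 FPKM in hypoxia, without overlap. Its log2 difference was -0.84 ± 0.41 (edgeR adjusted p = 0.217). Those of tek and cadherin-5 were 0.14 ± 0.19 and -0.11 ± 0.30. By FPKM 1 of the 17 tested markers did not overlap higher and 3 lower, beside 11.4% and 25.9% of all genes tested. Of 4 tested lymphatic and sinusoidal markers podoplanin, pdpn, rose (1.46 ± 0.19), which is 25% called beside 9.54% of all genes tested. The lymphatic regulator prox1 had a log2 difference of -0.34 ± 0.18 and mrc1 one of 0.00 ± 0.36. The LYVE1 row LOC113646718 was at 46.65, 46.38 and 28.44 FPKM in normoxia and 44.02, 16.37 and 13.4 FPKM in hypoxia. Its log2 difference was -0.51 ± 0.51 and did not pass. The summed level of these 6 markers was 53.9 to 75.9 FPKM in normoxia and 57.1 to 93.1 FPKM in hypoxia, and stab2 was listed under 1 FPKM in every library.

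Beside the fall of vegfd, the summed levels of a pair of other marker lists did not overlap between the groups. Of single genes tested 37.3% did not overlap by FPKM, 11.4% higher and 25.9% lower, and no such share was made for sums. The summed level of 8 mural and smooth muscle markers was 373 to 514 FPKM in normoxia and 555 to 624 FPKM in hypoxia. For 5 thrombocyte markers it was 16.9 to 26.1 FPKM in normoxia and 10.3 to 15 FPKM in hypoxia. Most of the first sum came from acta2 and 2 rows of transgelin type, LOC113640345 and LOC113662933, and most of the second from mpl and gp1bb. Their part in the results on the VEGF genes was not tested. Of 5 tested mural markers 1 was higher, the transgelin-like gene LOC113640345, which is 20% called beside 9.54% of all genes tested. LOC113640345 passed in 0 of the 6 fits that leave out 1 library. Of 4 tested thrombocyte markers none passed by edgeR and 1 had an unadjusted p under 0.05, which was common over all genes tested. The summed levels of 8 erythroid, 8 macrophage, 8 epithelial and 8 ionocyte markers overlapped between the groups. Of 6 tested erythroid markers 1 was lower, hemgn (-1.30 ± 0.30), and the other 5 were not called. Of 8 tested macrophage markers 2 were lower, spi1 (-0.59 ± 0.14) and LOC113656273 (-0.92 ± 0.12), and the other 6 were not called. These are 16.7% and 25%, beside 9.54% of all genes tested. The list medians were -0.37 and -0.05 on the log2 scale. Those of the mural and thrombocyte lists were 0.76 and -0.64, beside -0.04 over all genes tested. Without 1 library the call of LOC113656273 was kept in 5 of 6 fits, that of hemgn in 1 and that of spi1 in 0. No epithelial or ionocyte marker passed by edgeR, with 2 of each at an unadjusted p under 0.05, again a common value. Of the epithelial pair, tp63 was lower and only just missed the call (edgeR adjusted p = 0.0503). Its levels were 91.12, 68.95 and 85.03 FPKM in normoxia and 22.64, 44.55 and 44 FPKM in hypoxia, without overlap. The other, cldn7, went the other way, with a log2 difference of 0.499 ± 0.168 (edgeR adjusted p = 0.1001). The gill label was met by the epithelial adhesion molecule-like gene LOC113645006, at 1004 to 1571 FPKM, and by the gill factor gene gcm2, at 64.8 to 85.5 FPKM.

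By a fixed rule, the genes most like the most abundant ligand and receptor rows were taken from the root mean square difference of log2(FPKM + 1), centred over the 6 libraries, among tested genes with a symbol. For LOC113637314 they were nr1i2, slx4, nfxl1 and gtpbp8, with differences of 0.0397 to 0.0600 on the log2 scale, beside a range of 0.55 of the gene itself. For LOC113647811 they were kcnj15, wnt11, isoc2 and dnajc28, with differences of 0.114 to 0.152, beside a range of 1.03.

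Library totals were 44762764 to 55016223 counts. TMM factors were 0.869 to 1.08, lowest in hypoxia replicate 1. In all 825 genes were called higher and 636 lower, and with library totals in place of TMM scaling the counts were 366 and 798, with the median log2 difference of all genes at -0.20 in place of -0.04.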

How the data were processed

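The gene table that the authors deposited was analysed. Per the labels' protocols, RNA of 9 gills per group was mixed in sets of 3, purified on oligo-dT beads and read from both ends over 150 bases. The submitters' processing notes name cutadapt 1.9 and HISAT. The sources used here do not name the counter or annotation, the build, or how strand was treated. The table's columns hold, per the file headers, a count and an FPKM for each gene and library, and a count of 0 is listed at 0.0001 FPKM. Whether a count is a read or a pair is unknown, and coordinates are those of the table.

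Counts were fitted with edgeR 4.0.16 in R 4.3.3 (TMM, glmQLFit, glmQLFTest, two-sided, group only), with SEs derived from the F statistic. Alternatives were other scalings and filters, DESeq2 1.42.0, limma 3.58.1 on log2(FPKM + 1) and log2(FPKM + 0.1), a loess correction (span 0.5) for transcript length estimated from count and FPKM, a replicate block and leaving out each library. The script was tested on simulated data. The common biological coefficient of variation was 0.329, and no pair of libraries of a group agreed within counting noise.

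The genes and lists were chosen with earlier results of these data known. Named are the 8 genes, the called genes of each pathway list or the 2 with the smallest p, defining markers and the most alike genes; others, including those named from the table's own terms, were chosen after their values were seen. From the signalling relay list, a result is not reported here. Rows naming plasminogen activator inhibitors or receptors, caught by a word match, were removed from the processing list after inspection. Some annotation cells (254) were left out, and no sequence was used here. A reference gene table of the assembly HZAU_Pvac_v1 shared 0 identifiers with the deposited one, so no names came from it.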

Additional observations from a re-analysis of the deposited data

How the results depend on the processing

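The direction of every one of the 8 rows was kept in all 15 alternatives except for LOC113637314. Its log2 difference of 0.04 became -0.12 with library totals alone, -0.10 and -0.12 with limma on log2(FPKM + 1) and log2(FPKM + 0.1), -0.025 with the length correction, -0.03 without normoxia replicate 1 and -0.084 without hypoxia replicate 3; without 1 library it ranged from -0.084 to 0.164. The log2 change of vegfd, -1.62, was -1.83 to -1.36 without 1 library and passed in none of these 6 fits, so that 0 of the 8 genes were called in each. By DESeq2, limma and the other edgeR settings without a block 1 gene, vegfd, was called.

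Of all genes tested, 1461 were called, 862 with no filter on low values, 3332 with DESeq2, and 132 to 912 without 1 library. The split was 366 higher and 798 lower with library totals, 479 and 887 or 436 and 748 with the limma fits, and 768 and 363 with the length correction. The replicate block gave 242 calls, 0 of them among the 8 genes, and put vegfd at -1.67 on the log2 scale (edgeR adjusted p = 0.0653). The labels give no pairing. Same-numbered libraries of the groups had correlations across genes of -0.0453, 0.0170 and -0.0511, and pairs with different numbers had -0.0478 to 0.0897. With 3 libraries per group these values cannot show whether same-numbered libraries had a condition in common. The cause of these changes was not tested, except that 1 library less leaves fewer samples. TMM scaling cancels in shares and ratios within a library, so it is no check of them. The 8 genes had 41 to 1344 counts per library, and for single genes counting error was not separated from the spread between pools.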

Other observations

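The gene next to vegfd on its scaffold, pir, which encodes the nuclear protein pirin, lies 130 bases beyond it, upstream on the same strand. It was at 8.81 FPKM in normoxia and 5.35 FPKM in hypoxia, with a log2 difference of -0.56 ± 0.24 (edgeR adjusted p = 0.169). Farther along, bmx, which encodes a cytoplasmic tyrosine kinase of endothelial and bone marrow cells, was at 10.0 and 4.25 FPKM, with a log2 difference of -1.11 ± 0.33 (edgeR adjusted p = 0.0771). These neighbours were chosen after their values were seen.

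On the scaffold of flt1, the FLT3 receptor gene LOC113661300, a relative that acts in blood cell precursors, was at 10.7 FPKM in normoxia and fell to 4.97 FPKM in hypoxia (-0.93 ± 0.21 on the log2 scale, edgeR adjusted p = 0.0396). On the other side of flt1 a pair of serine protease genes by description were called higher. The log2 difference of LOC113658032 was 1.62 ± 0.27 and that of LOC113660193 was 2.79 ± 0.66 (edgeR adjusted p = 0.0242 and 0.0456). Both were weakly expressed, with means of 0.670 and 0.455 FPKM in normoxia and 1.84 and 2.79 FPKM in hypoxia. The normoxia means lay under the 1 FPKM of the filter, so both genes needed hypoxia libraries, where they were higher, to pass it. Their calls are therefore no support for a rise, and no fit without the filter is given for them. The neighbours of flt1 were also chosen after their values were seen. Between LOC113661300 and this pair, flt1 had a log2 difference of 0.21.

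The genes with a pattern closest to that of vegfd over the 6 libraries, also looked up after its values were seen, were ehf, an epithelial ETS transcription factor gene, hsh2d, pip5k1b and vav3, with root mean square differences of 0.111 to 0.158 on centred log2(FPKM + 1). The level of ehf was 143, 157 and 110 FPKM in normoxia replicates 1, 2 and 3 and 43.6, 71.9 and 69.5 FPKM in hypoxia replicates 1, 2 and 3. For vegfa the closest were dhps, mtap, pla2g7 and polr3d, with differences of 0.137 to 0.181.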
